A study of Arabidopsis thaliana with 8 samples.

Results

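Inflorescences of the Arabidopsis thaliana triple mutant hot3-2 dcl2 dcl4 were compared with those of the hot3-2 mutant by ribosome profiling, which sequences the mRNA fragments that ribosomes protect from nuclease. The comparison rests on 4 of the 8 libraries of the series, 2 of hot3-2 dcl2 dcl4 and 2 of hot3-2, chosen by the genotype in their labels. Libraries of dcl2 dcl4 and of WT (Col-0), 2 each, give the same difference where HOT3 is intact. It was asked which footprints change when DCL2 and DCL4 are lost in plants that lack normal eIF5B1. The hot3-2, dcl2-1 and dcl4-2 alleles are T-DNA insertions in the Col-0 background, each represented by 1 allele, and the triple mutant was made by crossing. Both groups compared carry hot3-2. All plants grew under 16 h of light a day, and each library came from whole inflorescences, a mixture of floral organs and stages. Footprints were counted without mRNA levels beside them. Fewer cells of a type, less RNA per cell and fewer ribosomes per mRNA therefore cannot be told apart. The replicates were called independent by the study, but whether they came from separate plantings is not given in the sources used here, so the p-values measure the spread between these libraries.

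HOT3 encodes eIF5B1, a GTPase that joins the ribosomal subunits at the start codon and is released before elongation begins. DCL2 and DCL4 are Dicer-like nucleases that cut long RNA duplexes into small interfering RNAs of 22 and 21 nt. Together with RNA-dependent RNA polymerases they make trans-acting siRNAs, which silence a small set of mRNAs, and siRNAs from viruses, transgenes and, when ribosomal RNA maturation fails, from ribosomal RNA.

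The files listed 1972841 and 2013952 footprints in hot3-2 dcl2 dcl4, compared with 2672291 and 2132736 in hot3-2, and 2807433 to 3588415 in the 4 other libraries. Floral organ identity genes carried a summed 695 and 700.1 CPM (normalised counts for each 1000000 counted) in hot3-2 dcl2 dcl4 and 653 and 713 CPM in hot3-2, over the 10 of the 15 listed genes in the files that passed the filter on low counts. Of the root markers 1 of 3 passed that filter, with 5.99 to 8.00 CPM in these 4 libraries, and of the seed markers none of 4 did. HOT3 (AT1G76810, chromosome 1, 28830902 to 28836748) carried 50 and 39 coding-sequence footprints in hot3-2 dcl2 dcl4, compared with 74 and 69 in hot3-2, whereas dcl2 dcl4 had 306 and 339 and WT 284 and 370. It did not pass the test between the hot3-2 dcl2 dcl4 and hot3-2 groups (log2 fold change −0.21 ± 0.30 SE, adjusted p = 0.865). DCL2 had 1 and 0 footprints in hot3-2 dcl2 dcl4 and none in hot3-2, and DCL4 had 1 and 4 in hot3-2 dcl2 dcl4, compared with 2 and 4 in hot3-2. These counts were too low in every genotype to check the dcl2 and dcl4 labels.

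Footprints fell in hot3-2 dcl2 dcl4 on 12 of 38 genes of senescence, chlorophyll breakdown and proteolysis, SAG12 and NYE1 among them. They rose on 16 of 54 nuclear photosystem genes, such as LHCB2.2 and PSAL, and on NIR1 and NIA2 of nitrate reduction and BCAT4 of glucosinolate synthesis. Among 13303 genes tested with limma voom, 225 (1.69%) passed a Benjamini-Hochberg adjusted p of 0.05, of which 69 (0.519%) rose and 156 (1.17%) fell. At least a 2-fold change was fitted for 14 of those that rose and 51 of those that fell. In 5 of the rises and 20 of the falls, 1 position held over 50% of the gene's footprints in at least 1 of the 4 libraries. Of all 13303 genes tested, 2700 had both hot3-2 dcl2 dcl4 libraries above both hot3-2 libraries and 2742 had both below. With 2 libraries a group such separation is close to required for passing, and it held in 224 of the 225 genes that passed. The count rested on both hot3-2 dcl2 dcl4 libraries, with 122 genes passing without replicate 1 and 107 without replicate 2, and 23 rises and 39 falls passed whichever of the 4 libraries was left out. In 28 nt footprints alone, whose P-site offset is the same in every library, 84 genes passed. Of the 69 genes that rose, 67 could be tested in that class and 67 had the same sign, and of the 156 that fell, 155 could be tested and 146 had the same sign. These footprints are part of the reads that gave the calls, so a shared sign was likely in advance. In that class 23 of the rises and 51 of the falls passed.

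Senescence genes had more falls than any other list. The list was drawn up after the changes had been seen, so its count is a description. Of its 38 members tested, 12 fell, none rose and 34 had a negative log2 fold change, with a median of −0.75 against 0.01 over all genes tested. Their summed level was 2931 and 3262 CPM in hot3-2 dcl2 dcl4 and 5572 and 5427 CPM in hot3-2, and 3148 and 3093 CPM in dcl2 dcl4 against 5142 and 5334 CPM in WT. The level of hot3-2 dcl2 dcl4 therefore stood beside that of dcl2 dcl4, and the level of hot3-2 beside that of WT. In 28 nt footprints 7 members fell.

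SAG12, a cysteine protease used as the marker of leaf senescence (AT5G45890, chromosome 5, 18613239 to 18614963), had 227 and 264 CPM in hot3-2 dcl2 dcl4 and 826 and 757 CPM in hot3-2. The hot3-2 dcl2 dcl4 libraries lay far below both hot3-2 libraries, and the fitted fall was 3.23-fold (log2 fold change −1.69 ± 0.11 SE, adjusted p = 2.0e-20). NYE1, which removes magnesium from chlorophyll at the start of its breakdown, had 50.4 and 40.7 CPM in hot3-2 dcl2 dcl4 and 150.03 and 172 CPM in hot3-2, a 3.51-fold fall (adjusted p = 7.5e-09). NYC1, the chlorophyll b reductase that acts beside it, had 76.0 and 113.6 CPM in hot3-2 dcl2 dcl4 and 173.5 and 139 CPM in hot3-2 (adjusted p = 0.00955).

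Proteases and nucleases of dying cells followed the same direction. MC9, a metacaspase, had 90.0 and 88.3 CPM in hot3-2 dcl2 dcl4 and 205 and 258 CPM in hot3-2, a log2 fold change of −1.34. CEP2, a cysteine endopeptidase, had 26.4 and 25.3 CPM in hot3-2 dcl2 dcl4 and 75.5 and 75.9 CPM in hot3-2. BFN1, a nuclease of senescence and developmental cell death, had 19.8 and 20.0 CPM in hot3-2 dcl2 dcl4 and 65.0 and 50.6 CPM in hot3-2. The groups of libraries did not overlap for any of these 3 genes, as for nearly all genes that passed. The vacuolar enzymes RD21A, GAMMA-VPE and ALP, which mature or degrade proteins in the lytic vacuole, fell by 0.76, 0.85 and 0.99 on the log2 scale. RD21A is abundant in these tissues and had 773 and 881 CPM in hot3-2 dcl2 dcl4 and 1427 and 1366 CPM in hot3-2. NAP, a NAC transcription factor that promotes leaf senescence, had a log2 fold change of −1.37 (adjusted p = 0.0287), and ATG8E, a ubiquitin-like protein of autophagosomes, −1.18 (adjusted p = 0.00434). The cysteine proteinase gene AT1G02305 passed with −0.62 in footprints of all lengths but had 0.00 in 28 nt footprints.

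**Figure D1:**
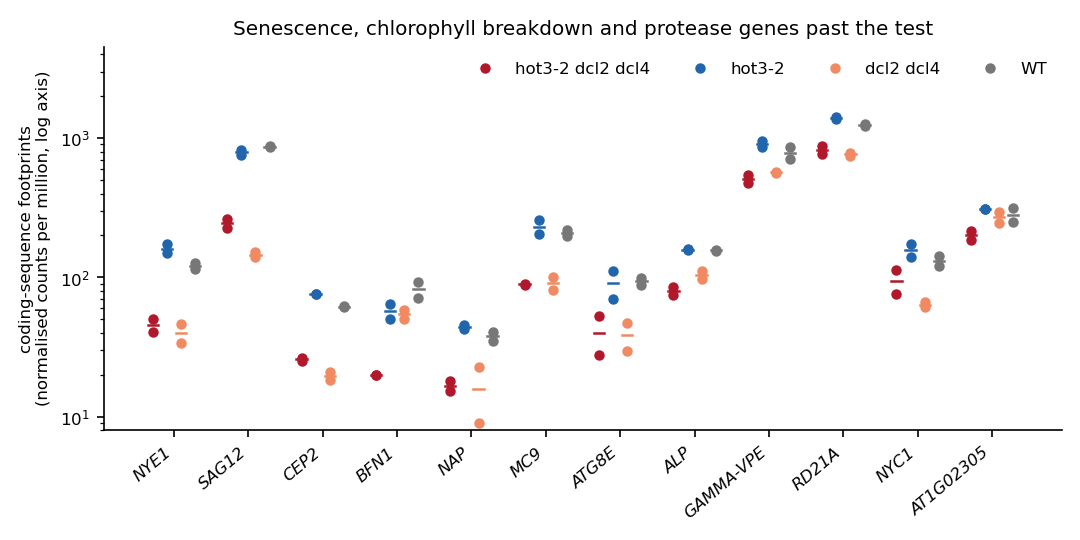
Normalised coding-sequence footprints (CPM, log axis) of the 12 genes of the senescence, chlorophyll breakdown and protease list that passed the test, with 1 point per library and a bar at the mean of the 2 libraries of each genotype. Both hot3-2 dcl2 dcl4 libraries lie below both hot3-2 libraries for each gene, as for SAG12 with 227 and 264 in hot3-2 dcl2 dcl4, compared with 826 and 757 in hot3-2.

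Nuclear genes for the photosystems and their light-harvesting antenna moved the other way. Of 54 tested, 16 rose, none fell and 44 had a positive log2 fold change, with a median of 0.24. Their summed level was 39081 and 41244 CPM in hot3-2 dcl2 dcl4 and 31820 and 33683 CPM in hot3-2, whereas it was 45687 and 46227 CPM in dcl2 dcl4 and 45701 and 45975 CPM in WT. The hot3-2 dcl2 dcl4 sums thus lay between those of hot3-2 and those of the genotypes with intact HOT3. The number of rises was 14 without hot3-2 dcl2 dcl4 replicate 1 and 11 without replicate 2, where 1 gene fell, and 7 in 28 nt footprints.

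The 3 LHCB2 genes, which encode the mobile antenna protein of photosystem II, were among the members with the largest changes. LHCB2.2 had 1310.3 and 1361 CPM in hot3-2 dcl2 dcl4 and 789.7 and 859 CPM in hot3-2, a log2 fold change of 0.70 ± 0.08 SE (adjusted p = 1.1e-10). LHCB2.1 and LHCB2.3 rose by 0.69 and 0.64. The sequences of LHCB2 genes are close to each other, as are those of CAB genes, so reads may be shared among them. LHCB3, another antenna protein, rose by 0.49 and the minor antenna protein LHCB5 by 0.33. In photosystem I the subunit genes PSAN and PSAL had log2 fold changes of 0.74 and 0.56, and PSAK, PSAD-1 and PSAO 0.39, 0.34 and 0.24. PSAL had 2824 and 2734 CPM in hot3-2 dcl2 dcl4 and 1899 and 1868 CPM in hot3-2, and its adjusted p was 2.7e-12, although in 28 nt footprints it was 0.0898. Genes of photosystem II subunits that rose were PSBTN (0.50), PSBX (0.44), PSBW (0.39), PSBP-1 (0.39) and PSBR (0.30), and CAB1, a major antenna gene, rose by 0.29.

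**Figure D2:**
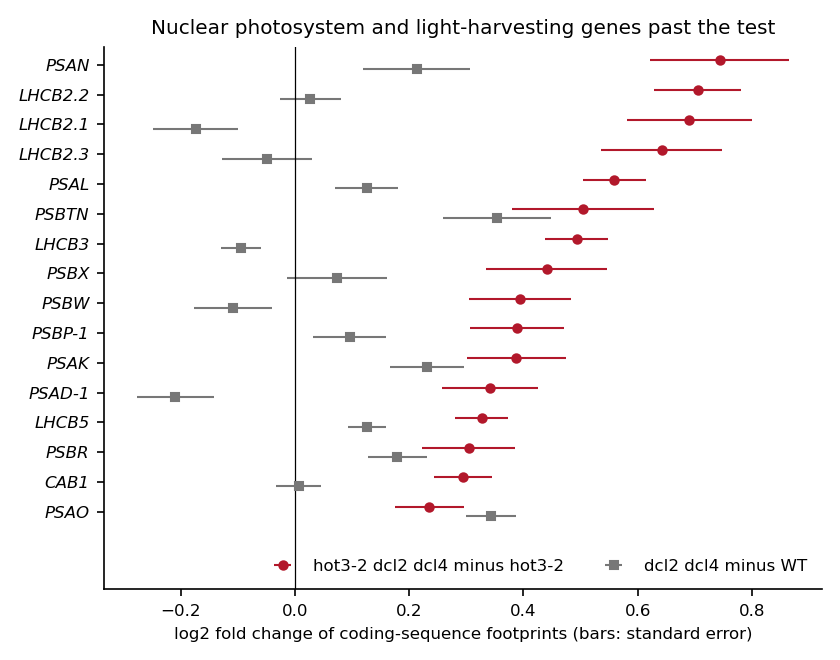
Log2 fold change of coding-sequence footprints with its standard error for the 16 photosystem and light-harvesting genes that passed the test, for hot3-2 dcl2 dcl4 minus hot3-2 (circles) and for dcl2 dcl4 minus WT (squares). The circles run from 0.24 for PSAO to 0.74 for PSAN, and the squares lie on both sides of 0.

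Rubisco small subunit genes split. RBCS1B, RBCS2B and RBCS3B rose by 0.38, 0.38 and 0.39 on the log2 scale, and RBCS1A, the most abundant of them, fell by 0.39. RBCS1A had 10292 and 8807 CPM in hot3-2 dcl2 dcl4 and 11674 and 13332 CPM in hot3-2. The rises were lost without hot3-2 dcl2 dcl4 replicate 2 and without hot3-2 replicate 2, with 0 of the 3 passing in either case, and in 28 nt footprints 0 of the 3 passed, while the fall of RBCS1A did. The B copies lie next to each other on chromosome 5 and are near-identical, and how reads that match several of them were placed is uncertain.

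NIR1 and NIA2 of nitrate reduction rose in hot3-2 dcl2 dcl4. NIR1, nitrite reductase (AT2G15620, chromosome 2, 6810395 to 6812941), had 150.3 and 109.8 CPM in hot3-2 dcl2 dcl4 and 45.5 and 57.2 CPM in hot3-2, a log2 fold change of 1.34 ± 0.21 SE (adjusted p = 4.0e-06). In dcl2 dcl4 it had 50.6 and 48.3 CPM against 81.9 and 73.4 CPM in WT, a log2 fold change of −0.65, and the 2 differences differed (interaction 1.99, adjusted p = 7.5e-07). NIA2, the major nitrate reductase, had 85.0 and 50.7 CPM in hot3-2 dcl2 dcl4 and 33.0 and 28.6 CPM in hot3-2 (log2 fold change 1.06, adjusted p = 0.014), but its largest adjusted p with 1 library left out was 0.499. Its paralogue NIA1, named after its values were seen, had a log2 fold change of −0.62 (adjusted p = 0.0503). The cytosolic glutamine synthetase gene AT5G37600, annotated as GSR 1, fell by 0.54, and the other 12 of 15 genes in the nitrate list, which was drawn up after the changes had been seen, did not pass.

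In glucosinolate metabolism 3 genes of synthesis from methionine rose, and 3 genes whose products act on glucosinolates fell. BCAT4, the aminotransferase that starts methionine chain elongation, had 27.2 and 34.5 CPM in hot3-2 dcl2 dcl4 and 4.00 and 2.66 CPM in hot3-2, a log2 fold change of 3.09 ± 0.67 SE (adjusted p = 0.00215), with a largest adjusted p of 0.0961 with 1 library left out. CYP83A1, which oxidises aldoximes, and GSTU20, a glutathione S-transferase, rose by 0.86 and 1.10. CYP83A1 lost its call without hot3-2 dcl2 dcl4 replicate 2 and without either hot3-2 replicate, with a largest adjusted p of 0.226. In 28 nt footprints GSTU20 alone of the 3 passed. GSTU20 had 310.5 and 358 CPM in hot3-2 dcl2 dcl4 and 163 and 147 CPM in hot3-2, and its adjusted p stayed at or under 2.8e-05 with any of the 4 libraries left out. These 3 were the members of the list of 19 that passed, 17 of 19 had positive values and the median was 0.51, but the list was extended after the changes had been seen. The myrosinases TGG1 and TGG2, which hydrolyse glucosinolates, fell by 0.41 and 0.29, and the nitrile specifier protein gene NSP5, which directs the products of that reaction, by 0.69. Without hot3-2 dcl2 dcl4 replicate 1 NSP5 alone of these 3 passed, and TGG2 was also lost without replicate 2 or without hot3-2 replicate 1.

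Targets of siRNAs made by DCL2 or DCL4 had a positive median, but 1 passed the test. The list held the trans-acting siRNA targets ETT and ARF4, pentatricopeptide repeat genes, auxin receptors and the nitrate reductases. Of 23 tested, 18 had positive log2 fold changes, 1 rose (NIA2) and none fell, while 10 had an unadjusted p under 0.05 and 6 passed with limma-trend in place of voom. Their median was 0.81 in hot3-2 dcl2 dcl4 against hot3-2 and 0.14 in dcl2 dcl4 against WT. ETT, an auxin response factor, had 22 and 36 footprints in hot3-2 dcl2 dcl4, compared with 23 and 19 in hot3-2 (log2 fold change 0.91, adjusted p = 0.413). ARF4 had 15 and 14 footprints in hot3-2 dcl2 dcl4, compared with 6 and 6 in hot3-2 (1.70, adjusted p = 0.326). AT1G63130, a pentatricopeptide repeat gene, had 25 and 35 footprints in hot3-2 dcl2 dcl4, compared with 10 and 18 in hot3-2 (1.68, adjusted p = 0.0591). These 3 genes were chosen after their values were seen. In the TAS1C transcript, a source of trans-acting siRNAs, 15 and 9 footprints of 21 to 22 nt were found in hot3-2 dcl2 dcl4, compared with 43 and 48 in hot3-2, while dcl2 dcl4 had 7 and 20 and WT 50 and 88, a transcript chosen after its values were seen. Other such transcripts did not all share this direction. In this size TAS1A had 1 and 7 in hot3-2 dcl2 dcl4, compared with 15 and 20 in hot3-2, and TAS3 1 and 3, compared with 4 and 8. TAS2 went the other way, with 4 and 11 in hot3-2 dcl2 dcl4, compared with 1 and 3 in hot3-2. TAS1B overlapped, with 4 and 12 in hot3-2 dcl2 dcl4, compared with 7 and 0 in hot3-2. None of 18 genes of the small RNA pathway passed with voom or limma-trend, and 0 had an unadjusted p under 0.05. RDR1, an RNA-dependent RNA polymerase, had a log2 fold change of 0.30 (adjusted p = 0.68).

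Among the other rises, NF-YC12, a subunit of the CCAAT-binding nuclear factor Y (AT5G38140), had 24 and 43 footprints in hot3-2 dcl2 dcl4 and none in hot3-2, at least 31.1-fold higher in hot3-2 dcl2 dcl4 when a floor of 3 counts over the group is taken for hot3-2. It had 1 and 0 footprints in dcl2 dcl4 and 3 and 0 in WT, and its largest adjusted p with 1 library left out was 0.0549. PRL, a minichromosome maintenance protein of DNA replication, had 20.6 and 21.5 CPM in hot3-2 dcl2 dcl4 and 3.00 and 2.00 CPM in hot3-2 (log2 fold change 2.93). The zinc finger gene AT5G52010 and the homeodomain gene HDG1 rose by 2.39 and 1.08, the malate transporter family gene AT1G68600 by 1.38, the cytochrome gene CB5-C by 1.18 and ENODL14 by 0.93. The peroxidase genes AT5G19880 (1.78) and AT4G11290 (1.22), the carboxypeptidase-like gene scpl47 (1.07) and the cytochrome P450 gene CYP71B31 (1.02) passed with any 1 library left out.

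The largest falls were fitted for genes of several kinds. DOX1, an alpha-dioxygenase that makes oxylipins (AT3G01420), had 19.0 and 21.5 CPM in hot3-2 dcl2 dcl4 and 81.0 and 84.5 CPM in hot3-2, a 4.01-fold fall (adjusted p = 4.4e-06). ELI3-2, annotated as a cinnamyl alcohol dehydrogenase, had 5.0 and 3.1 CPM in hot3-2 dcl2 dcl4 and 33.0 and 27.95 CPM in hot3-2 (log2 fold change −2.86). NCED2, a carotenoid-cleaving dioxygenase of the abscisic acid family, had a log2 fold change of −2.84, and SLY2, an F-box protein of gibberellin signalling, −2.06. AT1G15670, a kelch repeat gene, had 57.0 and 66.8 CPM in hot3-2 dcl2 dcl4 and 183 and 238 CPM in hot3-2 (−1.72), and it held with any 1 library left out, as did DOX1 and NYE1. Further falls among the 15 of largest size were fitted for AT5G47350, BAN, AT5G62750, AT5G64120, AT2G36950, UMAMIT17 and AT5G51770, with values from −2.43 to −1.73.

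Genes of mature pollen and of pectin modification had more falls than rises. Of 71 pectin methylesterase and inhibitor genes tested, 5 fell (AT3G05610, AT4G15750, AT2G45220, VGDH1 and VGD1), 1 rose (AT5G62360) and 52 had negative values, with a median of −0.35. Without hot3-2 dcl2 dcl4 replicate 1, or without replicate 2, 1 of them fell. VGD1, a pectin methylesterase of growing pollen tubes, had 54.5 and 70.6 CPM in hot3-2 dcl2 dcl4 and 127 and 159.7 CPM in hot3-2 (log2 fold change −1.17), and the pollen polygalacturonase gene PGA4 78.4 and 86.0 CPM in hot3-2 dcl2 dcl4 and 150.5 and 189 CPM in hot3-2 (−1.01). VGD1, VGDH1 and PGA4 were the 3 of 19 mature pollen genes that fell. More falls were called where HOT3 is intact, but this held for all genes tested as well. Of all genes, 3.12% fell there, while 1.17% did so with hot3-2 present. The libraries with intact HOT3 were also deeper, with 2051424 to 2815814 coding P sites among genes tested. Those carrying hot3-2 had 1187357 to 1963671. The counts of falls alone therefore cannot show a larger effect on pollen or pectin genes. In dcl2 dcl4 against WT 12 of these 19 fell and 1 rose, with a median of −0.70. Of the 71 pectin methylesterase and inhibitor genes, 17 fell and 2 rose there, with a median of −0.49. Of 50 pectin lyase-like genes 2 fell, AT1G04680 and AT3G17060. The mature pollen list summed to 1475 and 1528 CPM in hot3-2 dcl2 dcl4 and 1704 and 1866 CPM in hot3-2, while the tapetum and pollen wall list summed to 2027 and 1991 CPM in hot3-2 dcl2 dcl4 and 2015 and 2149 CPM in hot3-2, with none of its 20 members passing (5 at an unadjusted p under 0.05, 1 with limma-trend). Whether the amount of pollen in the samples had a part in this was not tested.

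Of 177 large ribosomal subunit genes 9 fell and 1 rose (AT4G18100), 5.65% against 1.69% of all genes tested. Of 100 small subunit genes 2 fell, AT5G59850 and AT2G07734 (2.00%). Both lists were drawn up by words of the annotated product, so some members may belong to ribosomes of organelles. Of the 9 falls 6 did not pass in 28 nt footprints, and the median of the large subunit list was 0.01. The falls were AT1G04480, SAC52, AT1G33120, PGY2, emb2171, AT3G14600, AT3G22230, AT4G31985 and AT5G65220, of which AT1G04480, SAC52 and AT3G22230 also passed in 28 nt footprints. The list had 4 falls without hot3-2 dcl2 dcl4 replicate 1, 5 without replicate 2 and 5 without hot3-2 replicate 2, but 12 without hot3-2 replicate 1. In AT3G14600, 1 position held 12.7% and 14.2% of the footprints in hot3-2 dcl2 dcl4, compared with 46.2% and 54.5% in hot3-2, and its log2 fold change was −1.02 in all lengths and 0.10 in 28 nt footprints. AT1G33120 and PGY2, near-identical copies of one ribosomal protein gene, had −0.64 and −0.54 in all lengths and −0.17 and −0.10 in 28 nt footprints. BGLU18, a glucosidase of endoplasmic reticulum bodies, likewise fell by 0.77 in all lengths and had −0.07 in 28 nt footprints, and 1 position held 10.98% and 11.5% of its footprints in hot3-2 dcl2 dcl4, compared with 31.7% and 36.9% in hot3-2. Of the elongation factor genes 2 of 10 fell, the near-identical AT1G07930 and AT1G07940 (−0.38 and −0.36), and the fall of AT1G07930 was also seen in 28 nt footprints (−0.45). The jasmonate-responsive storage protein gene VSP1 fell by 0.24, the histone gene AT1G09200 by 0.44, and the lipid-transfer protein gene AT2G45180 rose by 0.76.

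Several groups had no member past the test in limma voom. These were the 154 heat shock and chaperone genes (median −0.04), the 48 disease resistance genes (0.05), 15 cuticular wax and cutin genes (0.01), 12 pollen coat genes (−0.02), 7 salicylic acid and defence genes (−0.08) and 5 genes of eIF5B and 18S rRNA maturation (0.05). At an unadjusted p under 0.05 there were 17, 4, 4, 2, 0 and 1 of them in the same order, and limma-trend called 1 pollen coat gene and none of the rest. The 11 listed flavonoid genes had a median of −0.53, with DFR at 5 and 11 footprints in hot3-2 dcl2 dcl4, compared with 41 and 31 in hot3-2, but none passed with voom (4 at an unadjusted p under 0.05) and 1 with limma-trend. The list did not hold BAN, which is among the largest falls above. In dcl2 dcl4 against WT 4 of the listed genes fell and none rose. DFR was chosen after its values were seen.

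The same loss of DCL2 and DCL4 was measured where HOT3 is intact, in other libraries, which share with this comparison the estimate of the spread. In dcl2 dcl4 against WT, 722 genes (5.43%) passed, 307 (2.31%) higher and 415 (3.12%) lower. Of the 69 rises in hot3-2 dcl2 dcl4, 24 (34.8%) also rose in dcl2 dcl4, 7.82% of the rises there, and of the 156 falls 58 (37.2%) also fell, 14.0% of the falls there. In the senescence list 12 genes fell in hot3-2 dcl2 dcl4 and 16 in dcl2 dcl4. Opposite calls were found for 3 rises and 14 falls.

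**Figure D3:**
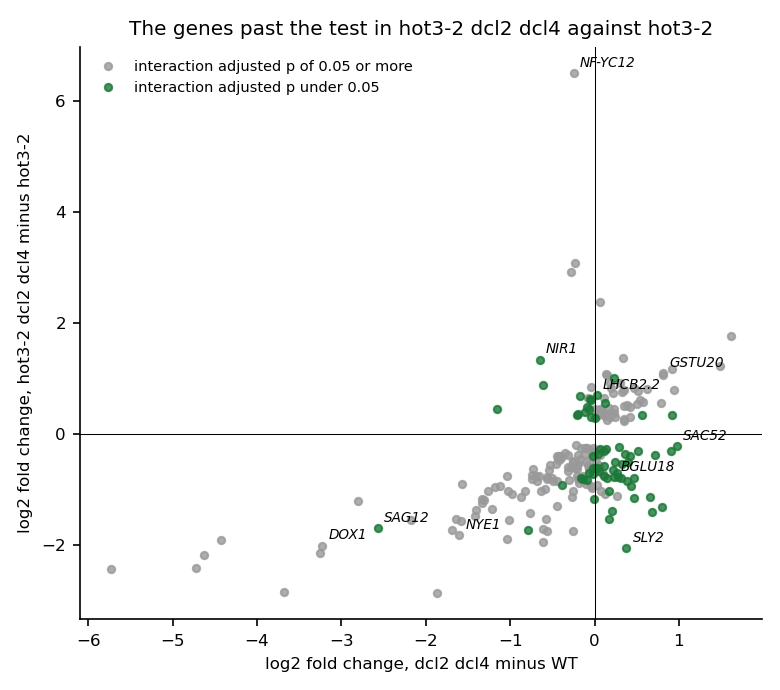
Log2 fold change of hot3-2 dcl2 dcl4 minus hot3-2 (vertical) against dcl2 dcl4 minus WT (horizontal) for the 225 genes that passed the test in hot3-2 dcl2 dcl4 against hot3-2, with those whose interaction had an adjusted p under 0.05 in green. The fitted value of NF-YC12 rests on 0 counts in hot3-2 and is no bound. SAG12 and DOX1 lie low on both axes, and NIR1 lies high on the vertical and below 0 on the horizontal axis.

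A test of the difference between the 2 differences, the interaction, passed for 146 genes (1.10%), of which 65 had passed in hot3-2 dcl2 dcl4 against hot3-2. Those with the smallest p were 3 ribosomal protein genes, BGLU18 and LHCB3. SAG24 and SAC52, near-identical copies for one large subunit protein, had log2 fold changes of −0.30 and −0.21 in hot3-2 dcl2 dcl4 against hot3-2 and 0.90 and 0.97 in dcl2 dcl4 against WT. AT5G59850, a small subunit protein gene, had 1466 and 1498 CPM in hot3-2 dcl2 dcl4 and 1941 and 1919 CPM in hot3-2, and 1571 and 1430.0 CPM in dcl2 dcl4 against 925 and 899.7 CPM in WT. WT was the genotype with the lowest level of this gene. LHCB3 rose by 0.49 in hot3-2 dcl2 dcl4 against hot3-2 and had −0.09 in dcl2 dcl4 against WT (interaction 0.59, adjusted p = 3.5e-10). SAG12 differed in size and not in direction, with −1.69 in hot3-2 dcl2 dcl4 against hot3-2 and −2.57 in dcl2 dcl4 against WT.

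Few called genes lay near the insertions. Within 1 Mb of DCL2, 4 of 286 genes tested passed (1.40%), DOX1 and AT3G05610 among them, and within 1 Mb of DCL4, 4 of 274 (1.46%), with AT5G19880 and scpl47 among them. Near HOT3, which both genotypes carry mutated, 3 of 309 did (0.971%), GSTU20 among them. These shares were under the 1.69% of all genes tested. Whether linked sequence had a part in these was not tested.

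Along mRNAs, hot3-2 dcl2 dcl4 had larger UTR shares than hot3-2, and a start codon share that was higher in 28 nt footprints but overlapped when other lengths were included. Positions were taken from 28 nt footprints, of which hot3-2 dcl2 dcl4 had 486141 and 517486 and hot3-2 949277 and 716864 with a P site on nuclear coding sequence. The start codon held 2.58% and 2.60% of these in hot3-2 dcl2 dcl4, compared with 2.46% and 2.34% in hot3-2, whereas dcl2 dcl4 had 0.512% and 0.522% and WT 0.541% and 0.562%. Wilson 95% intervals, which cover counting error only, were 2.53% to 2.62% and 2.56% to 2.65% for the hot3-2 dcl2 dcl4 libraries. For the hot3-2 libraries they were 2.43% to 2.49% and 2.31% to 2.38%. The ratio of hot3-2 dcl2 dcl4 to hot3-2 was 1.08 ± 0.03 (SD over the pairs of libraries), and it was 1.03 ± 0.08 in 26 to 29 nt footprints, where the groups overlapped. With all lengths and the deposited P sites the share was 2.28% and 3.74% in hot3-2 dcl2 dcl4, compared with 3.32% and 3.03% in hot3-2, so that replicate 1 of hot3-2 dcl2 dcl4, whose offset differs in short footprints, was the lowest and the ratio was 0.949 ± 0.271. With all lengths and 1 offset of 12 nt, an alternative chosen after seeing the data, it was 2.86% and 3.12% in hot3-2 dcl2 dcl4, compared with 2.92% and 2.76% in hot3-2, a ratio of 1.06 ± 0.06 with groups that overlapped. With 2 libraries in each genotype an exact permutation test cannot go below p = 0.333.

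Footprints outside the coding sequence made up more of the 28 nt class in hot3-2 dcl2 dcl4. The 5′ UTR held 2.63% and 2.54% of the 28 nt footprints in hot3-2 dcl2 dcl4, compared with 2.28% and 2.27% in hot3-2, a ratio of 1.14 ± 0.02. The 3′ UTR held 0.111% and 0.118% in hot3-2 dcl2 dcl4, compared with 0.0815% and 0.0723% in hot3-2, a ratio of 1.49 ± 0.12, from 554 and 627 footprints in hot3-2 dcl2 dcl4, compared with 792 and 531 in hot3-2. In neither region did the libraries of the 2 genotypes overlap, and in dcl2 dcl4 against WT the ratios were 1.09 and 1.31. Codons 2 to 10 held 2.61% in both hot3-2 dcl2 dcl4 libraries and 2.77% and 2.74% in hot3-2 (0.947 ± 0.005). Codons 11 to 50 had a ratio of 1.00 ± 0.02.

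**Figure D4:**
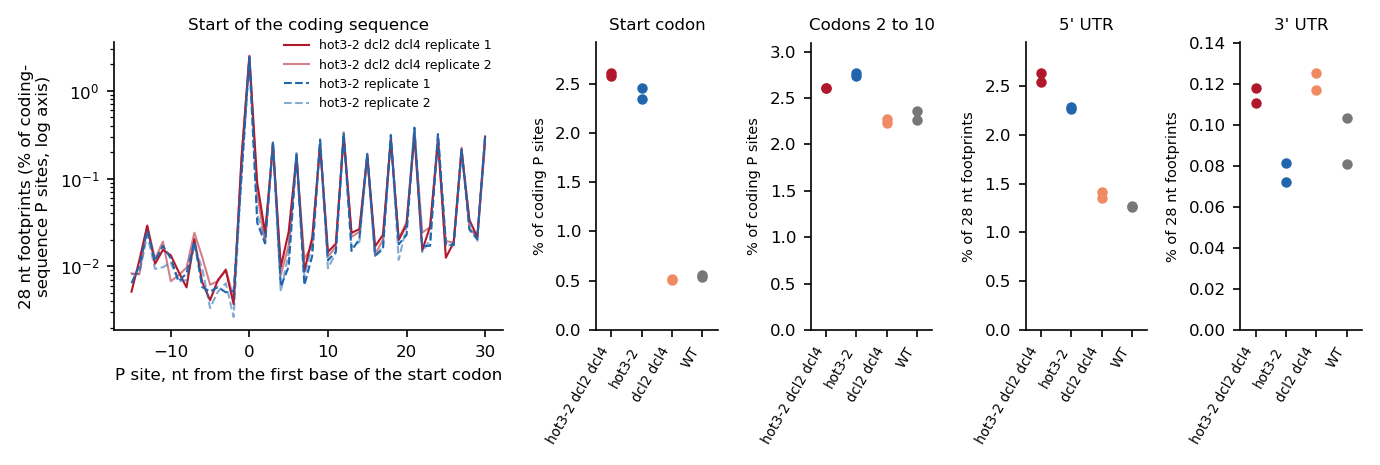
Left, share of 28 nt footprints (% of coding-sequence P sites, log axis) at each nucleotide from the start codon in the 2 libraries of hot3-2 dcl2 dcl4 and the 2 of hot3-2; right, share on the start codon, codons 2 to 10, 5′ UTR and 3′ UTR, 1 point per library. The start codon peak is alike in height in hot3-2 dcl2 dcl4 (2.58% and 2.60%) and hot3-2 (2.46% and 2.34%), and the 5′ and 3′ UTR shares of hot3-2 dcl2 dcl4 lie above those of hot3-2.

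Footprint length moved with these shares. In nuclear footprints, 28 nt made up 38.5% and 38.9% in hot3-2 dcl2 dcl4, compared with 46.3% and 45.2% in hot3-2, whereas 29 nt made up 24.0% and 23.0% in hot3-2 dcl2 dcl4, compared with 16.2% and 16.8% in hot3-2, and 30 nt made up 3.80% and 3.44% in hot3-2 dcl2 dcl4, compared with 1.46% and 1.60% in hot3-2. Of the 28 nt P sites, 86.7% and 87.0% were in frame in hot3-2 dcl2 dcl4 and 89.1% in both hot3-2 libraries. The part of length and frame in the UTR shares was not tested. The open reading frame AT2G01021 inside the ribosomal DNA repeat took 25.6% and 23.1% of all footprints in hot3-2 dcl2 dcl4, compared with 13.5% and 16.3% in hot3-2, while dcl2 dcl4 had 14.3% and 14.4% and WT 10.4% and 16.8%, and was kept out of all tests. Of its footprints, 35.7% and 36.4% were 21 to 22 nt long in hot3-2 dcl2 dcl4, compared with 44.7% and 46.3% in hot3-2, groups that did not overlap, while dcl2 dcl4 had 37.3% and 43.9% and WT 37.1% and 38.9%, groups that did. These fragments can come from ribosomal RNA as well as from siRNAs, which were not told apart.

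Start codon occupancy changed in few single genes. Of 730 genes with enough 28 nt footprints, 13 (1.78%) passed a quasi-binomial test of P sites on the ATG among those on the coding sequence, 8 higher and 5 lower in hot3-2 dcl2 dcl4. With 2 libraries a group, genes that pass such a test seldom overlap, so separation adds little to it. All 13 had libraries that did not overlap, but 1 passed without hot3-2 dcl2 dcl4 replicate 2, 7 without hot3-2 replicate 2, and 4 when the dispersion followed the start codon count. Those 4 and LHCB5 are shown here with their start codons, 12 bases before and 13 after, the ATG in capitals, from the TAIR10.1 genome and RefSeq annotation:

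AT3G55750: caaggattgaaaATGaagggacgtcaag

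TIP2: ctttctccgatcATGccgaccagaaaca

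RD22: caactcccaaaaATGgcgattcgtcttc

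LHCB4.1: aattagccggagATGgccgcaacatccg

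LHCB5: tggactaaaagaATGgcgtctttgggtg

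All 13 have a purine 3 bases before the ATG, as had 85.8% of the 730 genes tested and 74.0% of 20191 transcripts. Of the 13, 7 have G just after the ATG, against 67.7% of those tested.

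AT3G55750, a ribosomal protein L35Ae gene on chromosome 3, had 57.7% and 57.1% of its coding P sites on the ATG in hot3-2 dcl2 dcl4, compared with 71.8% and 77.0% in hot3-2 (log2 odds ratio −1.08 ± 0.20 SE, adjusted p = 3.6e-05). Its shares were 29.5% and 34.5% in dcl2 dcl4, compared with 42.6% and 40.6% in WT, and it passed with any 1 of the 4 libraries left out. TIP2, a water channel of the vacuolar membrane, had 4.51% and 1.61% in hot3-2 dcl2 dcl4, compared with 9.92% and 6.88% in hot3-2. In the AAA-type ATPase gene AT1G45000 the ATG held 105 of 134 and 74 of 92 P sites (78.4% and 80.4%) in hot3-2 dcl2 dcl4. In hot3-2 it held 351 of 376 and 235 of 251 (93.4% and 93.6%). Coding-sequence footprints of AT1G45000 had a log2 fold change of −0.79. That count includes the ATG, so the 2 falls are not separate results. The auxin exporter gene PIN7 and the acidic ribosomal protein gene AT5G47700 were the other falls, with log2 odds ratios of −1.49 and −1.43.

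Rises were found for the antenna genes LHCB5, with 16.8% and 17.2% in hot3-2 dcl2 dcl4, compared with 13.01% and 11.7% in hot3-2, and LHCB4.1, with 4.47% and 4.56% in hot3-2 dcl2 dcl4, compared with 1.69% and 1.15% in hot3-2. In LHCB5 the coding-sequence footprints, a count that includes the ATG, had risen as well, by 0.33. The start codon rise of LHCB5 did not pass when the dispersion followed the start codon count (quasi-binomial test, adjusted p = 0.0640). With all lengths and an offset of 12 nt its log2 odds ratio was 0.23 (adjusted p = 0.311). RD22, a drought-responsive gene, had 7 and 26 P sites on the ATG, 0.80% and 2.41%, in hot3-2 dcl2 dcl4 and 3 and 0, 0.17% and 0.00%, in hot3-2. The ribosomal protein genes RPL24A and AT5G09510, the isomerase gene AT1G73655, the lipase-like gene AT3G16370 and UXS1, which makes UDP-xylose, had log2 odds ratios of 0.64 to 2.39.

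**Figure D5:**
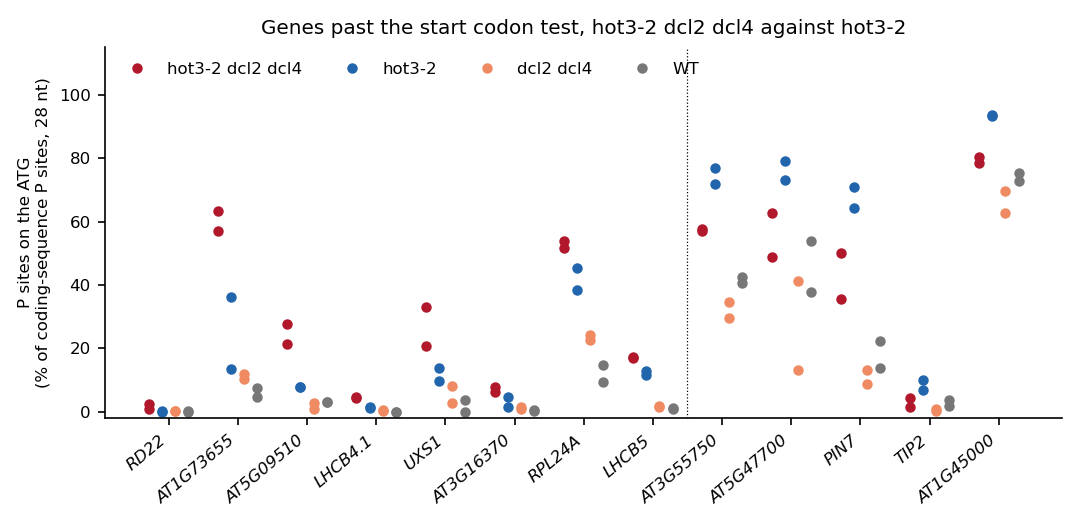
Share of 28 nt coding-sequence P sites on the ATG (%) for the 13 genes that passed the start codon test, 1 point per library, with genes higher in hot3-2 dcl2 dcl4 left of the dotted line and lower ones right of it. AT3G55750 has 57.7% and 57.1% in hot3-2 dcl2 dcl4, compared with 71.8% and 77.0% in hot3-2, with dcl2 dcl4 and WT below both.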

How the data were processed

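Ribosome footprints of 8 inflorescence libraries were analysed. Per the study's methods, the authors trimmed reads with cutadapt, mapped those of 18 to 42 nt with STAR to TAIR10, and assigned P sites, although the files also list longer footprints. The deposited files hold 1 line per footprint with positions in nucleotides, which the authors did not normalise, and counts were tallied from these lines. Removal of duplicates is not given in the sources used here. The P-site offset differs between libraries at most lengths other than 28 and 29 nt, as replicate 1 of hot3-2 dcl2 dcl4 has 7 to 9 nt at 19 to 25 nt and replicate 2 and hot3-2 12 to 13 nt.

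Lines with a P site from the start to the stop codon were counted per gene (22384 nuclear transcripts). AT2G01021 and organelle transcripts were left out. Genes needed, in 2 libraries, a count that after scaling for library size equals at least 10 in a library of median size. They also needed 15 counts in all. limma voom (limma 3.58.1, R 4.3.3) was fitted to all 8 libraries with 1 coefficient per genotype, after scaling by a trimmed mean of M values (30% by fold change, 5% by abundance), with Benjamini-Hochberg adjustment over all genes. Start codon occupancy was tested with a quasi-binomial model (limma's squeezeVar) on genes with a mean of 50 coding and 1 start codon P sites a library, with 0.5 added in odds ratios. The tests were run on simulated data first. Depth was 1187357 to 2815814 coding P sites a library among genes tested.

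Named genes were the 15 largest rises and falls past the threshold with libraries that do not overlap, list members that passed, the 5 interactions of smallest p, HOT3, DCL2, DCL4 and RDR1, and start codon genes that passed. Members and lists were chosen with earlier results of these data known, and the lists for senescence, nitrate, methionine-derived glucosinolates, Rubisco and elongation factors after the values were seen. Replicate numbers did not pair the libraries. Alternatives were other scalings, filters, footprint lengths, codons, samples and offsets.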

Additional observations from a re-analysis of the deposited data

Results flagged for a closer look

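For 25 named genes the difference of hot3-2 dcl2 dcl4 from hot3-2 and that of dcl2 dcl4 from WT differed by the interaction test of limma voom, with the interaction on the log2 scale and adjusted p under 0.05 over all genes. Most were named because they had changed in hot3-2 dcl2 dcl4 against hot3-2. The interaction contains that difference, so its sign was largely set by the choice of genes. The photosystem genes among them were more positive with hot3-2, LHCB2.1 by 0.86, LHCB2.3 by 0.69, LHCB2.2 by 0.68, LHCB3 by 0.59, PSAD-1 by 0.55, PSBW by 0.50, PSAL by 0.43 and CAB1 by 0.29. NIR1 differed by 1.99 and CYP71B31 by 0.78. SAG12 had an interaction of 0.88, since it fell in both comparisons and less with hot3-2.

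The flagged translation genes were more negative with hot3-2, while most members of their lists did not pass. Of the large and small ribosomal subunit genes tested, 10 of 177 and 7 of 100 passed the interaction test. Both shares were above the 1.10% of all genes tested. The list medians were 0.01 and −0.01 in hot3-2 dcl2 dcl4 against hot3-2, and 0.07 in both lists in dcl2 dcl4 against WT. The interaction was −1.22 for AT5G65220, −1.20 for SAG24, −1.19 for AT3G14600, −1.18 for SAC52, −1.10 for AT5G59850, −0.87 for PGY2, −0.85 for AT1G33120, −0.40 for AT1G07940 and −0.36 for AT1G07930. Other genes had −2.43 for SLY2, −1.003 for BGLU18, −0.93 for AT1G15670, −0.63 for NSP5 and −0.52 for VSP1. Falls of AT3G14600, AT1G33120, PGY2, AT5G65220 and BGLU18 were not seen in 28 nt footprints. No cause was tested.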

How the results depend on the processing

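The count of genes with changed footprints was 225, with 222 by median-of-ratios scaling, 229 by total counts (85 up, 144 down), 170 in 26 to 29 nt and 84 in 28 nt footprints, and 40 at an adjusted p under 0.01 with a 2-fold change. With each library left out it ran from 107 to 266. The count was 122 when replicate 1 of hot3-2 dcl2 dcl4 was omitted and 107 when replicate 2 was, the lone library being assumed to vary like the other groups. The interaction count was 146, with 71 in 28 nt footprints and 27 at the stricter threshold, and 92 to 162 with each library left out. The start codon count of 13 became 4 with the dispersion following the start codon count and 24 of 2069 genes with P sites 12 nt from every 5′ end, both chosen after seeing the data, and ran from 1 to 13 with each library left out.

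The start codon ratio reversed to 0.949 with all lengths and deposited P sites, was 1.06 with all lengths and an offset of 12 nt, and was 1.03 in 26 to 29 nt footprints and 1.03 as the mean of per-gene shares. With all lengths, the 5′ UTR ratio was 1.24 (1.16 with an offset of 12 nt) and the 3′ UTR ratio 1.19. The log2 fold changes of AT1G02305 (0.0041) and AT3G14600 (0.10) reversed in 28 nt footprints, and those of AT3G14600 (0.0060), PGY2 (0.063), AT5G65220 (0.10) and AT1G76810 (0.025) in 26 to 29 nt footprints. With each library left out, AT1G76810 ran from −0.43 to 0.025 and RDR1 from −0.077 to 0.59. The cause of these was not tested.

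With the replicate block, 267 genes, 170 interactions and 13 start codon genes passed, and all 92 named genes kept their call. The numbers do not pair the libraries. The difference of replicate 2 from replicate 1 was taken per gene in each genotype. Correlations of these differences between genotypes were −0.04 to 0.10 over 5792 genes. Of the 92 named genes, 35 of 90 kept their call in 28 nt footprints. With every library thinned to the smallest, 11561 genes could be tested, 273 passed and 91 of the 92 kept their call.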

Other observations

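Transcripts of trans-acting siRNA loci, which were not tested, also carried footprints. TAS1A held 3 and 11 footprints in hot3-2 dcl2 dcl4, compared with 16 and 31 in hot3-2, TAS2 23 and 32 in hot3-2 dcl2 dcl4, compared with 12 and 9 in hot3-2, and TAS3 72 and 112 in hot3-2 dcl2 dcl4, compared with 74 and 52 in hot3-2. Chloroplast transcripts took 7.42% and 7.77% of footprints in hot3-2 dcl2 dcl4, compared with 6.67% and 6.35% in hot3-2, a ratio of 1.17 ± 0.05 (SD over the pairs of libraries). The paralogue of HOT3, AT1G21160, had 158 and 140 footprints in hot3-2 dcl2 dcl4, compared with 262 and 143 in hot3-2, while dcl2 dcl4 had 17 and 13 and WT 22 and 13. After normalisation its log2 fold change in hot3-2 dcl2 dcl4 against hot3-2 was 0.05 ± 0.18 SE (limma voom, adjusted p = 0.949).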
